A study of Mus musculus with 24 samples.

Results

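The genes described here encode the first steps of signalling from the B cell receptor, read in splenic B cell subsets of NOD and B6 mice. They are Cd79a, Cd79b, Lyn, Syk, Btk, Blnk, Plcg2, Prkcb and Pik3ap1, and every probe set of the array that its annotation gives to 1 of these genes alone was taken. That rule found 14 probe sets of 8 genes, of 45101 probe sets on the array and 18193 genes that have 1 of their own. Syk had 4 probe sets, Prkcb 3, Pik3ap1 2, and Cd79a, Cd79b, Btk, Blnk and Plcg2 had 1 each. Lyn had no such probe set in the annotation used here and was not analysed here.

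The tested mice were NOD/ShiLtJ (NOD), an inbred strain that develops autoimmune diabetes spontaneously, and the mice they were set against were C57BL/6/J (B6). All were females aged 7 weeks, with no transgene or treatment in the labels. Cells depleted through CD3 and CD11b were sorted from spleens pooled from 8 mice per strain and experiment into 6 subsets labelled T1, T2FO, T3, FO, T2MZ and MZ, which are transitional stages and mature follicular (FO) and marginal zone (MZ) cells. Each subset of each strain had 2 arrays (Affymetrix, mouse genome), so 24 arrays in 12 groups trace back to 4 pools, 2 per strain.

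The B cell receptor is a membrane immunoglobulin held by the CD79a and CD79b chains, whose tails carry the tyrosine motifs that start the signal. Src family kinases such as LYN phosphorylate these motifs, SYK docks on them, and the adaptor BLNK then brings BTK and phospholipase C gamma 2 (PLCG2) together. PLCG2 makes the second messengers that release calcium and activate protein kinase C beta (PRKCB), while PIK3AP1, also called BCAP, links the receptor complex to phosphoinositide 3-kinase. Marginal zone and follicular cells are known to depend on this pathway to different degrees.

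Values are log values, taken as log2, that the authors centred on the median of each probe set over the 24 arrays. They show differences between arrays of 1 probe set and hold no expression level, so no gene is ranked above another. A check of the labelled cell type by level was therefore not possible either, and the 4 measured B cell markers of 5 listed (Ms4a1, Cd22, Pax5 and Ebf1) averaged -0.20 to 0.51 over the NOD arrays and -1.01 to 0.20 over the B6 arrays. In the tests below a probe set counts as called at a Benjamini-Hochberg adjusted p under 0.05 over all 45037 probe sets that are not controls. The tests are those of limma, a linear model fitted to every probe set.

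The 5′ probe set of the beta-actin control, which lies far from the poly(A) tail where labelling starts, ran from -0.54 to 0.79 in the NOD arrays. In B6 it was -4.04 to -3.27 in 6 arrays (replicate 2 of T1, T2FO, T3 and T2MZ, replicate 1 of FO and MZ), -1.36 to -0.77 in 4 (replicate 1 of T1, T2FO, T3 and T2MZ) and 0.42 and 0.47 in the other 2 (replicate 2 of MZ and of FO). The root mean square SD between replicates over all probe sets was 0.261 in NOD and 0.448 in B6. The NOD subset labels also go against transcripts of the sort markers, since the NOD arrays labelled T1 had the highest Cr2 (complement receptor 2), 1.20 ± 0.06, against -1.72 ± 0.15 in B6 T1, and the lowest Cd93, -2.09 ± 0.07, against 3.06 ± 0.11 (SD, n = 2 each). The NOD subset names below are those of the labels, and the strain difference averaged over the 6 subsets does not depend on those labels.

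Pik3ap1 was the only member called between strains over the subsets, with probe set 1429831_at alone. Cd79a is the B cell receptor chain with the widest strain difference among the members not called. Promoter sequences are shown for these genes. They are the 150 bases before the start site from RefSeq (GRCm38.p6), 5′ to 3′ on the gene's strand, with the core GGAA of ETS family sites or its reverse complement TTCC in capitals. Pik3ap1 lies at chr19:41385103-41385252 (minus strand) and Cd79a at chr7:24897347-24897496 (plus strand).
Pik3ap1: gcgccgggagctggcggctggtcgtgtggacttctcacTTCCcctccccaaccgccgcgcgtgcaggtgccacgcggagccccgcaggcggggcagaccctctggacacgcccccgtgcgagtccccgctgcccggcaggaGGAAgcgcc
Cd79a: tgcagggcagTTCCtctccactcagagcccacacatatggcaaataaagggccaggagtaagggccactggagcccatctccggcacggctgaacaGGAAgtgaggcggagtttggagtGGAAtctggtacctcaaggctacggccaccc

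The Cd79a window held this core at 3 places and the Pik3ap1 window at 2. Searched on both strands, it was in 6 of 8 windows of the 7 members with an entry (Syk has 2 start sites), where 80.8% of 32851 windows of the same length hold it. The E-box CANNTG was also in 6 of 8 windows, with 47.7% of all windows holding it. The letters CCCNNGGG, the core of EBF1 sites, were in 0 of the 8 and in 7.72% of all. These are matches of letters in a short window and not sites of binding.

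The first comparison asked which members differed between NOD and B6 over all subsets, with the 6 subsets of each pool averaged and 2 pools per strain, taken by replicate number. In B6 the numbers of FO and MZ may be crossed relative to the other subsets, since their arrays deviated against same-numbered ones, so a B6 mean may mix pools. With them crossed, 59 of all probe sets were called in place of 1361, and Pik3ap1 1429831_at was still called (limma adjusted p = 0.0473). Of the 14 probe sets, 1 was called, higher in NOD, where 3.02% of all probe sets were called, 1.64% higher and 1.38% lower. It was Pik3ap1 probe set 1429831_at. The other 13 did not pass, and 8 of the 14 had an unadjusted p under 0.05, as had 8559 of all 45037 probe sets. Of the 14 differences 10 were positive and 4 negative, with a median of 0.52 on the log2 scale against -0.03 over all probe sets. They share arrays, and several share a gene, so they are not separate observations.

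Pik3ap1, the adaptor of phosphoinositide 3-kinase, had values of 0.86 at the lowest, 1.25 at the median and 1.40 at the highest of the 12 NOD arrays with probe set 1429831_at. The 12 B6 arrays had -1.52, -1.33 and -0.86. No B6 array reached any NOD array, a separation that 2.4% of all probe sets showed. Over the subsets NOD exceeded B6 by 2.50 ± 0.11 (SE), a 5.68-fold difference with an unadjusted 95% interval of 2.21 to 2.80 on the log2 scale and an adjusted p of 0.0103. The difference stayed at 2.42 to 2.59 whichever of the 4 pools was left out. The call was lost when either NOD pool was left out, as were those of all other probe sets. The spread then rests on the B6 pools alone.

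The same probe set was called in each of the 6 subsets as labelled, as were 0.537% of all probe sets. Arrays labelled MZ had 1.27 and 1.39 in NOD and -1.52 and -1.47 in B6, a difference of 2.83 ± 0.20 (SE, limma adjusted p = 1.61e-06). Those labelled T1 had 1.38 and 1.16 in NOD and -1.19 and -1.29 in B6. In T2FO the values were 1.16 and 0.93 in NOD and -1.11 and -1.22 in B6, and that difference of 2.21 was the smallest of the 6. So the NOD arrays lay high and the B6 arrays low in every subset. Differences between subsets within a strain were small beside this, since the NOD group means ran only from 1.04 to 1.33 and the B6 means from -1.50 to -1.15.

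The other Pik3ap1 probe set did not share this difference. Probe set 1421285_at had -0.82, -0.35 and 0.11 as lowest, median and highest of the NOD arrays and -0.21, 0.37 and 0.93 of the B6 arrays. Most NOD arrays lay below most B6 arrays, and the strains overlapped. The difference was -0.58 ± 0.12 (SE) with an adjusted p of 0.0858. Both readings belong to 1 gene symbol, so the direction for Pik3ap1 as a gene depends on the probe set. The mean of the probe sets gave 0.96 with an adjusted p of 0.0213. Which transcripts or sequence differences the probe sets report was not tested.

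**Figure D1:**
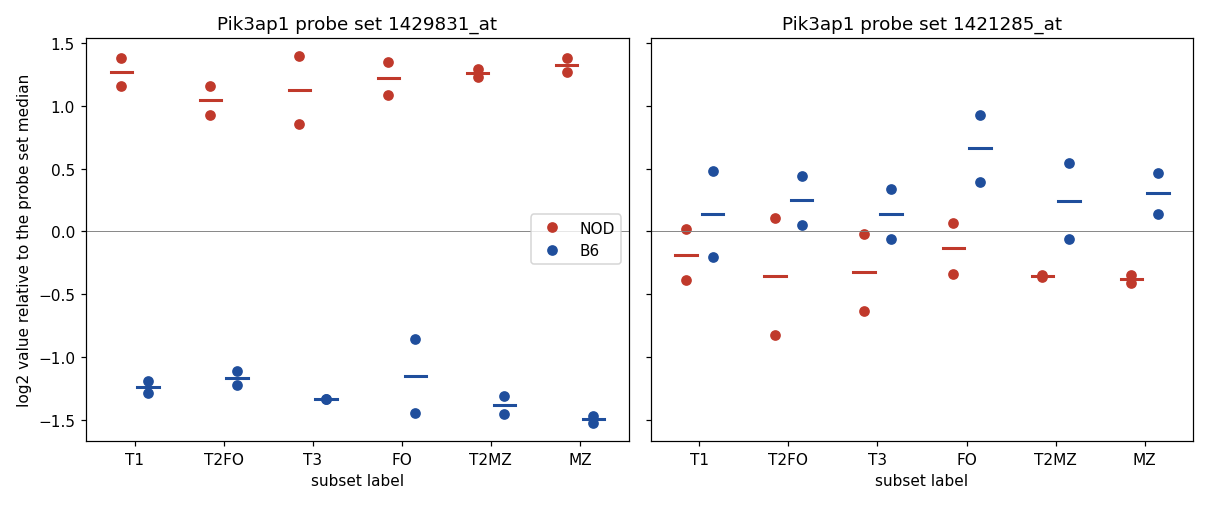
Centred log2 values of the Pik3ap1 probe sets 1429831_at (left) and 1421285_at (right) by subset label, with 1 point per array, NOD in red left of B6 in blue, and a bar at each group mean of 2 arrays. With 1429831_at all 12 NOD arrays lie at 0.86 or above and all 12 B6 arrays at -0.86 or below, and with 1421285_at most NOD arrays lie below most B6 arrays and the strains overlap.

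Cd79a, the receptor chain that marks B cells, varied most among the B6 arrays. NOD arrays had -0.28 at the lowest, 0.45 at the median and 0.62 at the highest, and B6 arrays had -3.08, -2.28 and 0.31. The strain difference of 1.96 ± 0.51 (SE), 3.89-fold, had an unadjusted interval of 0.60 to 3.32 and an adjusted p of 0.139, so it was not called. It was 2.70 without B6 replicate 1 and 1.21 without B6 replicate 2. With 1 B6 pool left, the fit takes its spread from the NOD pools alone, so only these sizes are given. In B6 the value split replicates of the same subset. B6 T1 had 0.31 and -2.33 in its 2 arrays, T2FO had 0.04 and -2.60, T3 had -0.18 and -2.24, and T2MZ had -0.22 and -2.55. In each of these 4 subsets replicate 1 lay within the NOD range, and replicate 2, with the lower 5′ control, lay far below it.

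FO and MZ of B6 had no Cd79a value near NOD. The values were 0.02 and 0.47 in NOD FO and -2.64 and -1.37 in B6 FO. In MZ they were 0.61 and 0.50 in NOD and -2.54 and -3.08 in B6. Replicate 2 of B6 FO and MZ, whose 5′ control was as high as in NOD, thus stayed low in Cd79a. The difference in MZ was 3.37 ± 0.96 (SE), with an adjusted p of 0.0883. B6 MZ replicate 2, the lowest array in Cd79a, also had the highest mean of the myeloid markers (7 of 7 measured, -0.73 to 1.72 over B6 arrays and -0.32 to 1.35 over NOD arrays). B6 FO replicate 1 had the lowest B6 mean of these markers, -0.73, and a Cd79a value of -2.64. NOD FO replicate 2 had the highest NOD mean, 1.35, and a Cd79a value of 0.47. None of the 7 myeloid markers was called between strains, and their part in the Cd79a value was not tested. In bulk RNA of sorted cells, fewer cells of a type and less RNA per cell cannot be told apart.

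Cd79b, the partner chain, had a smaller strain difference. It ran from -0.08 through a median of 0.12 to 0.41 in NOD arrays and from -1.38 through -0.13 to 0.51 in B6 arrays. The difference was 0.49 ± 0.12 (SE), 1.41-fold, with an adjusted p of 0.127, and it was -0.19 with the 5′ minus 3′ control as a covariate, so no direction is given. The 6 B6 arrays with the lowest 5′ control had -1.38 to -0.15, the 4 intermediate ones 0.00 to 0.51 and the other 2 had -0.11 and -0.09. Unlike Cd79a, Cd79b was thus close to NOD in all 6 B6 arrays outside the lowest class.

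**Figure D2:**
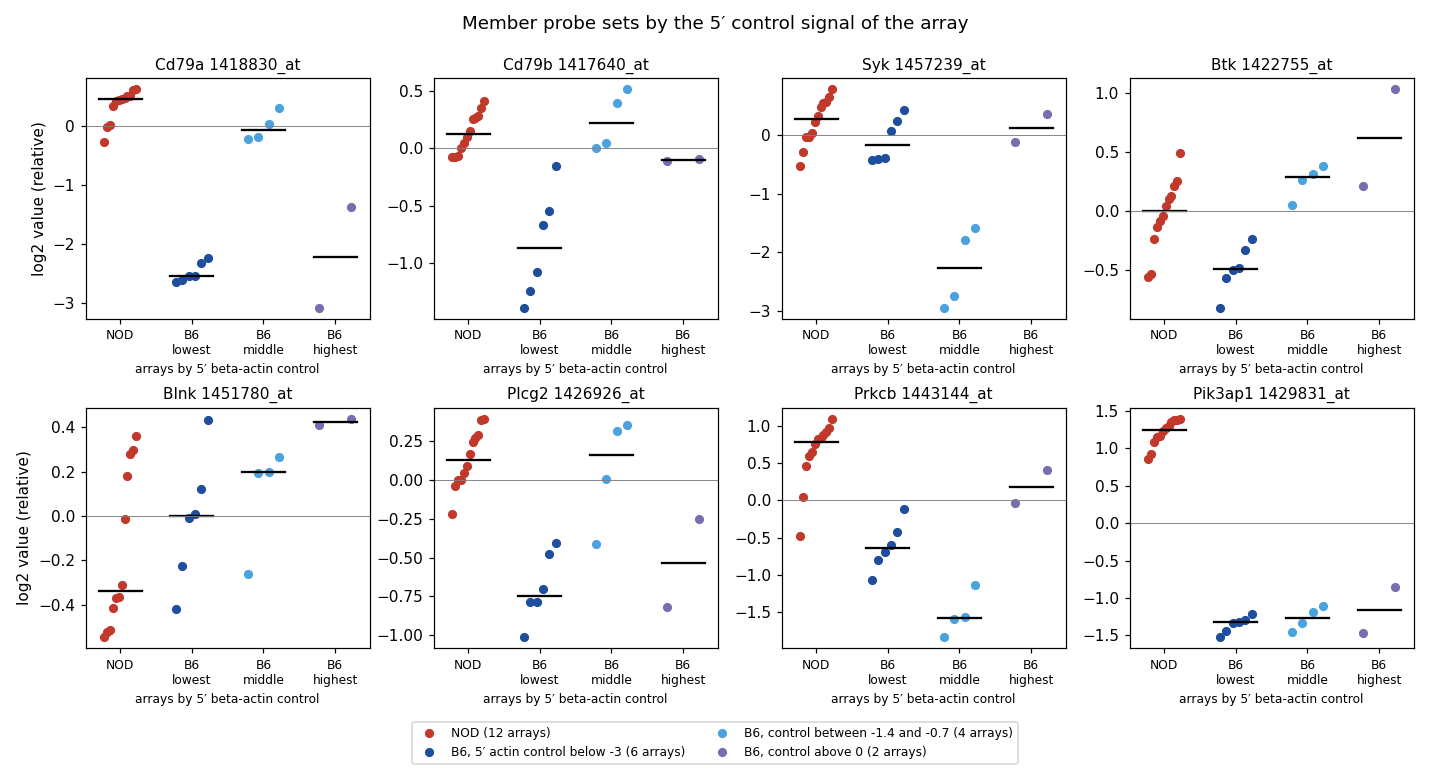
Centred log2 values of the leading probe set (largest SD over the 24 arrays) of each of the 8 members, 1 panel per gene and 1 point per array, with NOD first and then the B6 arrays by their 5′ beta-actin control class. Cd79a is within the NOD range in the 4 intermediate B6 arrays and below it in the other 8, Syk 1457239_at and Prkcb 1443144_at are lowest in the 4 intermediate arrays, and Pik3ap1 1429831_at is low in all 12 B6 arrays.

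Syk, the kinase that docks on the phosphorylated receptor tails, was read by 4 probe sets, and none was called. All 4 differences were positive, from 0.48 ± 0.20 for 1418262_at to 1.00 ± 0.52 for 1457239_at (SE), with adjusted p of 0.214 to 0.428. For 1457239_at the difference was 0.24 without B6 replicate 1 and 1.77 without B6 replicate 2. The probe sets showed several patterns in B6. Probe set 1418261_at had -0.28 to 0.41 in NOD, -1.16 to -0.64 in the 6 lowest-control B6 arrays and -0.39 to 0.43 in the 4 intermediate ones. The 2 B6 arrays with the highest control had -0.78 and -0.60, below the NOD range. Probe set 1418262_at had -0.43 to 0.67 in NOD, -0.72 to -0.31 in the lowest-control B6 arrays and -0.46 to 0.28 in the intermediate ones. Its values in the 2 highest-control arrays were -0.68 and 0.12. Neither probe set thus rose steadily with the control. Probe set 1457239_at was lower in the intermediate class than in the lowest-control class. It had -0.53 to 0.78 in NOD, -2.95 to -1.58 in the 4 intermediate B6 arrays and -0.43 to 0.43 in the 6 lowest-control ones. Another pattern came from 1425797_a_at, which was -0.11 to 1.88 in NOD, 0.67 and 1.22 in the 2 B6 arrays with the highest control and -0.72 to -0.01 in the other 10.

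Btk, the kinase that phosphorylates PLCG2, had nearly equal strain means. NOD arrays had -0.56, 0.00 and 0.49 as lowest, median and highest, and B6 arrays had -0.82, -0.10 and 1.03. The difference of 0.03 ± 0.09 (SE) had an unadjusted interval of -0.21 to 0.27 and an adjusted p of 0.936. Its B6 values were split by the 5′ control, with -0.82 to -0.24 in the lowest class, 0.05 to 0.38 in the intermediate class and 0.21 and 1.03 in the highest. The difference was -0.40 when the 6 lowest-control B6 arrays were left out and 0.46 when the other 6 were left out, so no direction is given for Btk.

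Plcg2, the phospholipase, had -0.22, 0.13 and 0.39 in NOD arrays and -1.01, -0.45 and 0.35 in B6 arrays (lowest, median and highest). The difference was 0.55 ± 0.17 (SE), 1.46-fold, with an adjusted p of 0.19. It was 0.76 without B6 replicate 1 and 0.34 without B6 replicate 2. The strains overlapped through B6 T1, T2FO and T2MZ replicate 1, which had 0.35, 0.31 and 0.01. Plcg2 was thus below the NOD range in 9 of 12 B6 arrays and within it in 3 of the 4 intermediate ones.

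Blnk, the adaptor that joins SYK to BTK and PLCG2, had a strain difference of -0.26 ± 0.12 (SE) with an adjusted p of 0.36. Its range over arrays was -0.55 to 0.36 in NOD and -0.42 to 0.44 in B6. The highest group means were 0.29 for the NOD arrays labelled T1, with 0.28 and 0.30, and 0.43 for B6 MZ, with 0.43 and 0.44. The lowest were -0.46 for the NOD arrays labelled T2MZ and -0.42 for those labelled T3. NOD arrays labelled T1 are also the NOD group with the highest Cr2. In T2MZ the strain difference of -0.65 ± 0.26 (SE) had an adjusted p of 0.27.

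Prkcb, the protein kinase C beta gene, gave different results by probe set. With 1443144_at NOD arrays had -0.47, 0.79 and 1.10 and B6 arrays -1.84, -0.75 and 0.41 (lowest, median and highest). That difference of 1.42 ± 0.29 (SE), 2.68-fold, had a limma adjusted p of 0.0896. It was 1.07 without B6 replicate 1 and 1.77 without B6 replicate 2. With 1423478_at and 1460419_a_at the strain differences were -0.17 ± 0.15 and -0.04 ± 0.11 (SE), with adjusted p of 0.689 and 0.927. Only 1443144_at therefore stood out in size, and like Syk 1457239_at it was lowest in the 4 intermediate B6 arrays, at -1.84 to -1.13. Probe set 1460419_a_at went against the 5′ control, with -0.01 to 0.32 in the 6 lowest-control B6 arrays and -0.39 and -0.18 in the 2 highest.

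**Figure D3:**
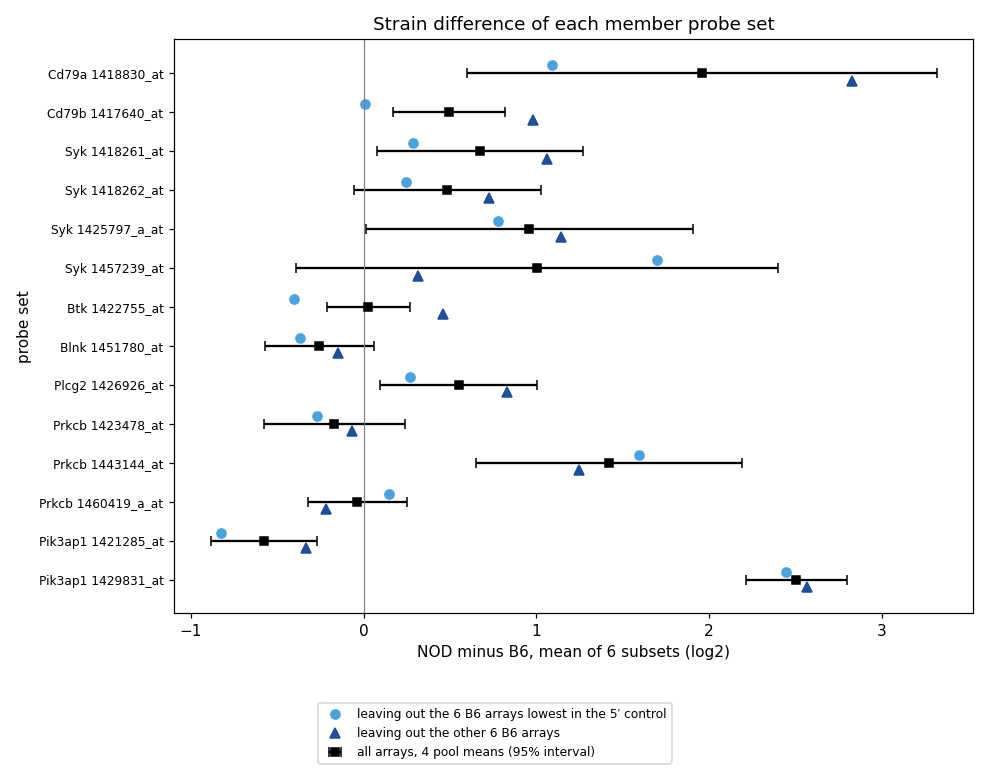
NOD minus B6 averaged over the 6 subsets (log2) for the 14 probe sets, with black squares and 95% intervals from the 4 pool means, pale circles without the 6 B6 arrays lowest in the 5′ control and dark triangles without the other 6. Pik3ap1 1429831_at stays between 2.45 and 2.56 under both choices, whereas Cd79a runs from 1.09 to 2.83 and Btk from -0.40 to 0.46.

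The strain comparison within single labelled subsets added 1 call to the 6 of Pik3ap1, which makes 7 of 84 tests, where 3.12% of all such tests were called. Prkcb 1443144_at was called in T2MZ, with 0.88 and 1.10 in NOD and -1.59 and -0.70 in B6, a difference of 2.13 ± 0.50 (SE, limma adjusted p = 0.0327). By subset, 6.31% of all probe sets were called in T1, 2.58% in T2FO, 1.72% in T3, 2.88% in FO, 2.73% in T2MZ and 2.52% in MZ. The Prkcb call did not hold without replicate 1 of B6 T2MZ or without either replicate of NOD T2MZ. In T1 the same probe set had a difference of 1.62 ± 0.50 (SE) with an adjusted p of 0.0735, and it passed there when replicate 2 of B6 T1 or either replicate of NOD T3 was left out.

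Results for most members depended on which B6 arrays were used, an alternative added after seeing the data. These fits treat the arrays of a pool as independent and leave 1 B6 array per group, so the lone array is assumed to vary like NOD replicates. With the 6 lowest-control B6 arrays left out, 8 of the 14 probe sets were called over the subsets, where 26.4% of all were called. With the other 6 left out, 9 of the 14 were called, where 32.5% of all were called. Only Cd79a, Prkcb 1443144_at and Pik3ap1 1429831_at were called, in the same direction, in both. NOD exceeded B6 in Cd79a by 1.09 without the lowest 6 and by 2.83 without the other 6. The Prkcb difference was 1.59 without the lowest 6 and 1.25 without the other 6. That of Cd79b was 0.01 without the lowest 6 and 0.98 without the other 6, called in the second alone. Pik3ap1 1421285_at was called lower in NOD without the lowest 6, at -0.83. The part that the 5′ signal plays in these values was not tested.

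The next comparisons asked whether the members change along the subsets. Over the 6 subsets of B6, limma called 0 of the 14 probe sets, with 0 at an unadjusted p under 0.05 and 1.41% of all probe sets called. Over the NOD arrays as labelled it called 0, with 1 at an unadjusted p under 0.05 and 1.77% of all called. For the difference between strains in subset pattern it called 0, with 0 at an unadjusted p under 0.05 and 1.35% of all called. With the replicate number as a block these 3 counts were 0 as well. Of all 45037 probe sets, 4083, 3422 and 3654 had an unadjusted p under 0.05 in these 3 comparisons, in that order. With 2 arrays per group and the split B6 replicates, the member counts say little about small differences between subsets.

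Marginal zone and follicular cells were compared directly. In B6, 0 of 14 probe sets were called between MZ and FO, where 0.564% of all were called. At an unadjusted p under 0.05 were 2718 of all 45037 probe sets and 1 of the 14. The smallest p was that of Prkcb 1423478_at, with -0.55 and -0.34 in MZ and -0.01 and 0.26 in FO, a difference of -0.57 ± 0.22 (SE, limma adjusted p = 0.609). The groups did not overlap for it, nor for Syk 1418262_at and 1457239_at, Blnk, Plcg2 and Pik3ap1 1429831_at. With 2 arrays per group this carries little weight. The share of all probe sets without overlap was not counted, so nothing about the members is read from it. Of the 14 differences 13 were negative, with a median of -0.41 on the log2 scale against 0.00 over all probe sets. All 14 share the same arrays and several share a gene, so they are not separate observations. The sign for Cd79b and Btk turned with 1 array left out. In NOD as labelled 0 of 14 were called between MZ and FO, where 0.122% of all were called. At an unadjusted p under 0.05 were 1076 of all 45037 probe sets and 1 of the 14. That one was Blnk, with 0.36 and -0.02 in the arrays labelled MZ and -0.42 and -0.37 in those labelled FO, a difference of 0.56 ± 0.26 (SE, adjusted p = 1).

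The difference between strains in MZ minus FO, with the NOD arrays as labelled, was positive for all 14 probe sets. Its median was 0.43 against 0.01 over all probe sets. The 14 share the same arrays, so they are not separate observations. Of them 0 were called, where 0.124% of all were called. An unadjusted p under 0.05 was found for 1772 of all 45037 probe sets and for 0 of the 14. Between T1 and FO of B6, 0 of 14 were called, where 1.01% of all were called. An unadjusted p under 0.05 was found for 4612 of all 45037 probe sets and for 1 of the 14. Prkcb 1443144_at had -1.84 and -0.43 in B6 T1 and -0.11 and 0.41 in B6 FO, a difference of -1.28 ± 0.50 (SE, limma adjusted p = 0.346). The T1 values are the intermediate-control array and the lowest-control array, in that order.

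**Figure D4:**
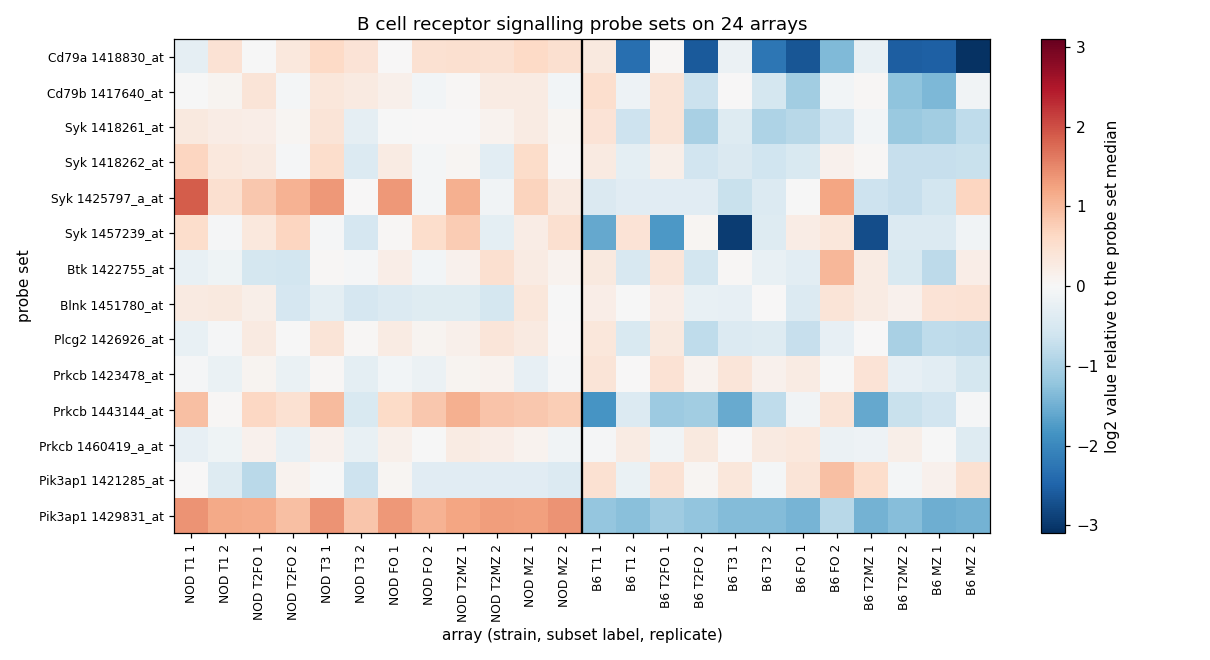
Centred log2 value of each of the 14 probe sets (rows) in each of the 24 arrays (columns, NOD left of B6, by subset label and replicate), on a colour scale around the probe set median. Pik3ap1 1429831_at is uniformly high in NOD and low in B6, while Cd79a and Syk 1457239_at differ widely between B6 replicates of T1, T2FO, T3 and T2MZ.

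Other genes of the pathway were read from a list of 45, of which 41 had a probe set here, each by its most variable one. Over the subsets 1 was called higher in NOD and 1 lower, where 2.34% of 18193 genes were called higher and 2.06% lower. Cd22, an inhibitory coreceptor that recruits the phosphatase SHP-1, averaged 0.90 in NOD and -0.97 in B6, a difference of 1.86 ± 0.24 (SE, limma adjusted p = 0.0415). Vav3, an exchange factor that acts downstream of SYK, averaged -0.22 in NOD and 0.55 in B6, a difference of -0.77 ± 0.10 (SE, limma adjusted p = 0.0393). For both genes the arrays of the strains overlapped. With either NOD pool left out neither was called, nor was any other probe set, so this says nothing about these genes. The list's median difference was 0.47 against -0.02 over all genes. By subset, 3 were called higher and 1 lower in T1, 2 higher and 1 lower in T3, 2 higher in T2MZ, 3 higher in MZ and 0 in T2FO and FO, where 7.62%, 2.59%, 3.68%, 3.53%, 3.51% and 3.62% of all genes were called.

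Genes whose values moved most like each member over the 24 arrays, after the strain mean was taken out, were found for the most variable probe set of each. Cd79a was most like Tecr and Arhgef1 (Pearson r = 0.965 for each). For Cd79b it was Psmb10 (0.945) and Mrpl49 (0.937), for Plcg2 Ap3d1 (0.954) and Triobp (0.944), and for Btk Kat5 (0.948) and Abcf3 (0.939). Syk 1457239_at was most like Dnajc13 (0.927) and Thoc2 (0.925), and Prkcb 1443144_at most like Bclaf1 (0.868) and Gm20199 (0.863). Lower values were found for Blnk with Adgre5 (0.814) and Marcks (0.803) and for Pik3ap1 1429831_at with Gtf3c2 (0.807) and Kansl1 (0.801). The points share their arrays, and the B6 arrays fall into control classes, so these correlations describe the arrays and carry no test.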

How the data were processed

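RNA of sorted splenic B cells was labelled by a two-cycle amplification primed with oligo(dT), per the labels' protocols. Per the submitters' processing notes RMA made the values. The deposited values were read here as log2 values, a base that no source used here states. The median of every probe set over the arrays was 0 (at most 5e-07 in size), which shows that rows had been centred, so no filter on dim probe sets could be applied. Array medians lay between -0.04 and 0.06, and 0 pairs of arrays held identical values.

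Of 45101 probe sets, 64 were controls, 34945 had 1 gene symbol in the platform annotation, 932 had several and 9160 had none. The members and gene lists were chosen with earlier results of these data known. Members are named with every probe set, and other pathway genes only where called over the subsets. Pathway genes were read by the probe set of largest SD over the arrays. Cell type lists were read as mean centred values, and among the B cell, T cell, myeloid, dendritic, NK, plasma cell, erythroid and platelet lists only Cd22 of the B cell list was called between strains.

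limma 3.58.1 in R 4.3.3 was run on 45037 probe sets, with Benjamini-Hochberg adjustment. For the strain difference over subsets it was run on 4 pool means. Every other comparison used 1 mean per group over all 24 arrays, so that arrays of a pool count as independent. A single estimate of the correlation within a pool, over both strains and by replicate number, was 0.112. In B6 it takes in same-numbered arrays that correlated strongly in either direction, given below. It therefore does not show that the dependence is slight. P-values of the strain difference over subsets measure the spread between the 2 pools of each strain. With a pool left out they rest on the 2 pools of the other strain alone, so calls gained or lost there are not support. Those of the other comparisons rest on 1 spread per probe set, shared by all 12 groups. Their SEs are thus not the scatter of the arrays compared. For Cd79a the SE of the strain difference was 0.956 in every subset, while the SD was 0.0777 in NOD MZ and 0.377 in B6 MZ. The steps were tested on simulated data with noise drawn independently for each array. That setting lacks the dependence between arrays of a pool, so it does not show how the tests behave under it. Plots were made in Python 3.11.15 with matplotlib 3.10.9.

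Replicate numbers were taken to name pools within a strain, which the labels do not state for each array and which may not hold for B6 FO and MZ. Deviations of same-numbered arrays from their group means correlated at -0.04 to 0.507 in NOD. In B6 they correlated at 0.733 to 0.873 among T1, T2FO, T3 and T2MZ, at 0.71 between FO and MZ, and at -0.62 to -0.368 between FO or MZ and the other 4. Between strains the numbers pair unrelated pools, with -0.29 to 0.267.

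Alternatives were quantile normalization, only probe sets with 1 gene, the more variable part of the probe sets, the 5′ minus 3′ control as a covariate, arrays as independent, pool as a random block, the replicate block, crossed B6 numbers, only the arrays compared, the mean of a gene's probe sets, each replicate left out, and 2 sets of B6 arrays left out.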

Additional observations from a re-analysis of the deposited data

How the results depend on the processing

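Of the 14 member probe sets the 1 called between strains over the subsets became 0 with the replicate block, where 8 had an unadjusted p under 0.05 and Pik3ap1 1429831_at had 2.50 with a limma adjusted p of 0.0614 (2.36e-11 to 0.166 over its alternatives). It became 3 in the more variable part of the probe sets, 6 with the 5′ minus 3′ control as a covariate, 8 with 24 arrays as independent, and 8 and 9 without the 6 B6 arrays lowest in the control and without the other 6. It was 0 to 4 with a pool left out, 0 without NOD replicate 1 or 2 and 4 without B6 replicate 1 or 2. The 7 calls in single subsets became 19 with the covariate, 17 and 25 with these B6 arrays left out, 3 with only the arrays compared, and 6 to 8 with 1 array left out. The 0 members called over B6 subsets and in T1 minus FO of B6 became 1 each with the covariate, and 2 and 1 without the lowest 6, which also gave 1 in the interaction. With 1 array or pool left out these stayed at 0, as did MZ minus FO. The sign turned for Cd79b between strains with the covariate (-0.19), and for Btk with the covariate (-0.61), without B6 replicate 2 (-0.0051, the lowest with a pool left out, the highest being 0.0605) and without the lowest 6 (-0.40). In MZ minus FO of B6 it turned for Cd79b without FO replicate 2 (0.32) and MZ replicate 1 (0.47, range with 1 array left out -0.80 to 0.47), for Btk without FO replicate 2 (0.0232, range -1.33 to 0.0232), and for Cd79a without the other 6 (0.10). The causes were not tested.

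Over all probe sets, the 1361 called between strains became 2769 in the more variable part, 11978 with the covariate, 8925 with arrays as independent, 59 with crossed B6 numbers, 18 with the replicate block, 11896 and 14646 with the B6 arrays left out, and 0 to 3433 with a pool left out, the 0 (5120 and 5762 at an unadjusted p under 0.05) without either NOD pool. The 8441 calls in single subsets became 26683 with the covariate, 19410 and 24162 with the B6 arrays left out, 985 with only the arrays compared, and 6047 to 8786 with 1 array left out. The 637 over B6 subsets became 252 with quantile normalization, 2989 with the covariate, 1521 with the replicate block, 1078 with the random block, 79 with only B6 arrays, 3005 and 380 with the B6 arrays left out, and 359 to 793 with 1 array left out. The 797 over NOD subsets became 1381 with quantile normalization, 1946 with the covariate, 1447 with only NOD arrays and 376 to 820 with 1 array left out. The 609 of the interaction became 1723 with the covariate, 1034 with the replicate block, 2069 without the lowest 6 and 270 to 785 with 1 array left out. The 254 of MZ minus FO in B6 became 112 with quantile normalization, 696 with the covariate, 415 with the replicate block, 0 with only the arrays compared (2084 at an unadjusted p under 0.05) and 108 to 187 with 1 array left out. The 55 in NOD became 151, 100 and 98 under quantile normalization, the covariate and the replicate block, and 5 to 28 with 1 array left out. The 56 for their difference became 141 with the covariate, 116 with the replicate block, 88 with the random block, 0 with only the arrays compared (2105 unadjusted), 116 without the lowest 6 and 4 to 121 with 1 array left out. The 456 of T1 minus FO in B6 became 228 with quantile normalization, 2272 with the covariate, 1174 with the replicate block, 695 with the random block, 0 with only the arrays compared (3269 unadjusted), 1979 and 178 with the B6 arrays left out, and 116 to 340 with 1 array left out. Across strains the replicate block pairs unrelated pools, and it changed no call of a member other than that of Pik3ap1 over subsets. Centred values give no signal over background, so dim probe sets could not be told from bright ones.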
